A study of Mus musculus with 16 samples.

Results

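Semaphorins are secreted or membrane-bound guidance proteins, plexins are their main receptors, and neuropilins are coreceptors for the secreted ones. The genes described here are the 20 semaphorin, 9 plexin and 2 neuropilin genes of the mouse, taken by symbol from the normalised table that the authors deposited. All 31 symbols were found among 48709 genes counted. A filter on low counts left 18191 genes for testing, 30 of the 31 among them; Plxnb3 did not pass it. The RNA came from salivary glands of wild-type mouse embryos of the ICR strain at embryonic day 13 (E13). There were 4 groups of 4 libraries: epithelium and mesenchyme of the parotid gland, and epithelium and mesenchyme of the submandibular gland. No treatment, transgene or mutant allele is named for any group, and per the labels the libraries of a group are independent biological replicates. The sources used here do not say how the layers were separated or whether embryos were pooled, and the design text also mentions a culture period that the sample protocol does not.

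A semaphorin carries a Sema domain that binds the Sema domain of a plexin. The plexin's intracellular part acts on small GTPases and through them on the cytoskeleton and on integrin adhesion. Class 3 semaphorins are secreted, and most need a neuropilin as the binding part of the receptor, with an A-type plexin or Plxnd1 as the signalling part; Sema3e can bind Plxnd1 without one. Classes 4, 5 and 6 span the membrane and class 7 is held by a lipid anchor. Neuropilins also bind vascular endothelial growth factor. In developing salivary glands the epithelium forms the branching end buds and ducts, the mesenchyme surrounds them, and nerves and vessels grow in through the mesenchyme, so that ligands and receptors of this family can be made by several cell types of 1 tissue piece.

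Each library held between 16912258 and 27646844 gene counts. Levels are given as CPM, a gene's share of the counts of a library, after scaling with edgeR's trimmed mean of M-values (TMM), which compares 1 gene between libraries. Where genes are compared with each other the level is divided by the exon length, as RPKM. The layers matched their labels: 8 epithelial markers summed to 2243 to 2786 CPM in the epithelial libraries and 12.1 to 52.7 CPM in the mesenchymal ones, and 8 mesenchymal markers summed to 14.5 to 351 CPM in the epithelial libraries and 12480 to 26612 CPM in the mesenchymal ones. The mesenchymal marker sum differed between the mesenchymes without overlap, at 18733 to 26612 CPM in parotid and 12480 to 14468 CPM in submandibular gland. Its part in the differences between the mesenchymes was not tested. Mean mesenchymal marker sums in epithelium were 0.972% of those in mesenchyme for the parotid and 0.667% for the submandibular gland, and the reverse sums of epithelial markers were 0.751% and 1.65%. Other cell types differed between the groups. Neuronal markers summed to 372 to 746 CPM in parotid mesenchyme and 46.3 to 231 CPM in submandibular mesenchyme. Skeletal muscle markers summed to 311 to 1224 CPM and 143 to 308 CPM in the same groups, with the lowest parotid value in replicate 4. Erythroid markers summed to 1431 to 2175 CPM in parotid mesenchyme and, without overlap, to 3280 to 4114 CPM in the submandibular one, the side on which Plxnc1, Nrp2 and Sema4g had their highest levels; their part in those differences was not tested. Endothelial markers overlapped between the mesenchymes, at 483 to 746 CPM and 527 to 747 CPM. In these bulk samples fewer cells of a type and less RNA per cell cannot be told apart.

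Many members differed in level between the 2 layers, while others, such as Plxnb2, were high in both. The mesenchymes of the glands differed more from each other than the epithelia did, as was also so over all genes tested. The median absolute log2 fold change of the members was 0.88 in mesenchyme and 0.46 in epithelium, beside 0.36 and 0.29 over all genes. Sema3c, a secreted ligand, was the largest gland difference of the set: its mean level was 643 CPM in parotid mesenchyme and 18.8 CPM in submandibular mesenchyme. Plxnc1, the receptor of Sema7a, went the other way, with 5.74 CPM in parotid mesenchyme against 93.9 CPM in the submandibular one. Both neuropilins were mesenchymal in both glands, with Nrp1 the more abundant per length in parotid and Nrp2 in submandibular mesenchyme. Sema3b, Sema4a, Sema4d and Plxnb1 were epithelial in both glands.

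A gene was called when its adjusted p (edgeR quasi-likelihood test, Benjamini-Hochberg adjustment over all genes tested) was under 0.05. Between epithelium and mesenchyme 24 of 30 members were called in the parotid gland, with 8 that favoured epithelium and 16 that favoured mesenchyme. Of all genes tested 64.9% were called there, 31.4% higher and 33.5% lower. In the submandibular gland 25 were called, 11 higher and 14 lower, against 67% of all genes (33.3% higher and 33.7% lower). The median absolute log2 fold change of the members was 1.98 in the parotid gland, where it was 0.72 over all genes tested, and 1.83 in the submandibular gland, where it was 0.77. Between the glands 8 members were called in epithelium, 6 higher and 2 lower in parotid, with 20.9% of all genes called (11.2% higher and 9.72% lower), and the median absolute log2 fold change was 0.46 against 0.29 over all genes. In mesenchyme 18 were called, 15 higher and 3 lower in parotid, with 34.5% of all genes called, 20.8% higher and 13.7% lower. There the median absolute log2 fold change was 0.88 against 0.36 over all genes. These gland counts depend in part on scaling. Scaling by library totals alone moved the median of all genes by -0.17 in mesenchyme, and the share of called genes that were higher in parotid went from 60.3% to 37.4%, or to 46.2% with upper-quartile factors. The members then called were 14 higher and 6 lower with library totals, and 15 higher and 5 lower with upper-quartile factors.

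**Figure D1:**
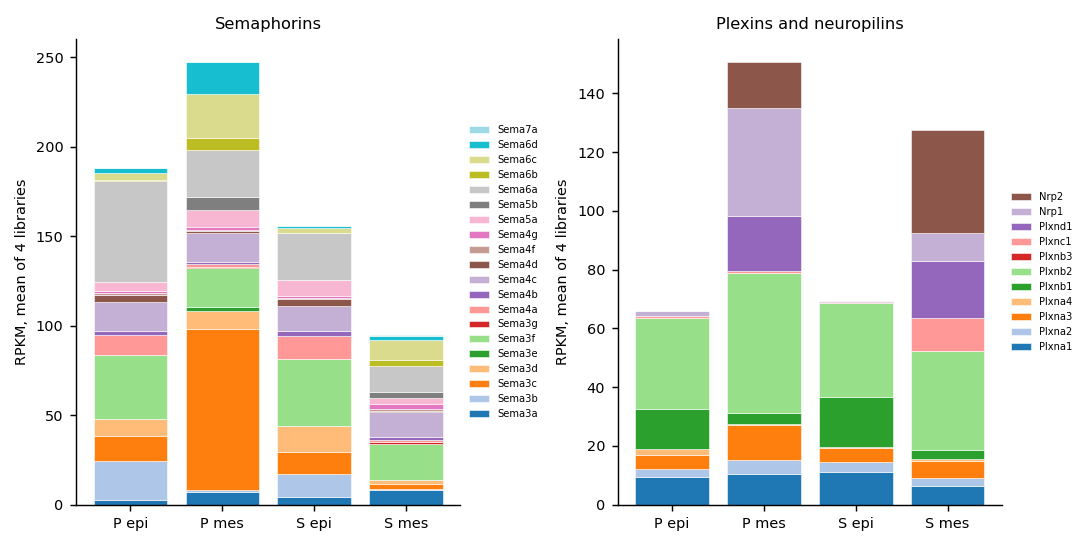
Summed level per exon length (RPKM, mean of 4 libraries) of the 20 semaphorins (left) and of the 9 plexins and 2 neuropilins (right) in the 4 groups, stacked by gene. Sema3c makes up 36% of the semaphorin sum in parotid mesenchyme, and the neuropilin share is all but missing in both epithelia.

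Per exon length, the summed level of the 20 semaphorins was 188 ± 16.1 RPKM (SD, n = 4) in parotid epithelium, 247 ± 32.7 in parotid mesenchyme, 156 ± 21.4 in submandibular epithelium and 94.8 ± 0.99 in submandibular mesenchyme. The 4 libraries of submandibular mesenchyme lay below every other library. Sema6a ranked first in parotid epithelium at 56.3 ± 6.12 RPKM, Sema3c in parotid mesenchyme at 90.1 ± 22.4 RPKM, and Sema3f in both submandibular layers, at 37.2 ± 7.39 and 20.1 ± 1.65 RPKM. In submandibular epithelium the libraries of Sema3f and of Sema6a, which ranked next, overlapped; in the other groups the first gene lay clear of the next. The 9 plexins summed to 64.3 ± 9.81 and 69.2 ± 13.9 RPKM in parotid and submandibular epithelium and to 98.4 ± 8.26 and 83.1 ± 5.01 RPKM in the mesenchymes. Plxnb2 ranked first among the plexins in all 4 groups and made up 40.7 to 48.3% of their sum. The neuropilins summed to 52.4 ± 8.88 and 44.5 ± 2.38 RPKM in parotid and submandibular mesenchyme and to 1.56 ± 0.476 and 0.314 ± 0.198 RPKM in the epithelia. The stacked plot of levels per length shows these sums.

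**Figure D2:**
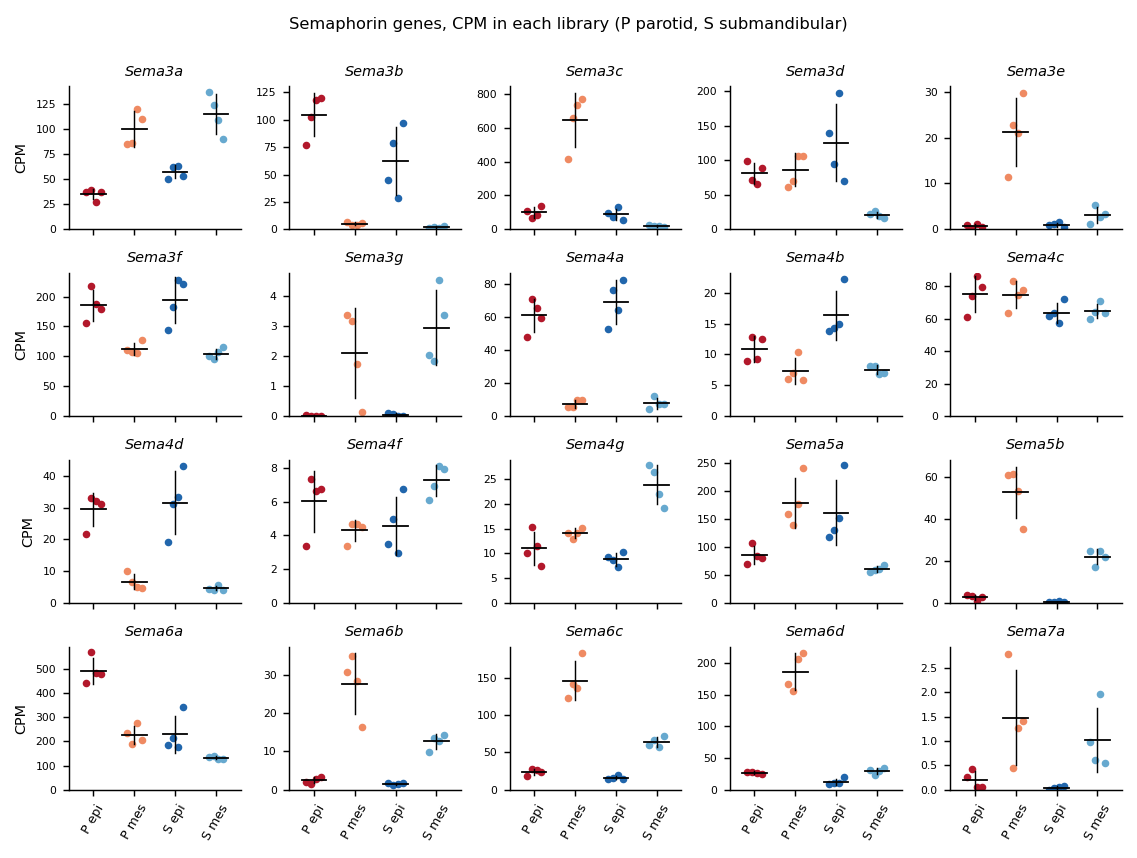
Level in each library (CPM, 1 panel a gene with its own axis from 0) of the 20 semaphorins in parotid (P) and submandibular (S) epithelium (epi) and mesenchyme (mes); points are libraries, lines the mean and SD of 4. Sema3c, Sema3e and Sema6d stand out in parotid mesenchyme, Sema3b, Sema4a and Sema4d in both epithelia.

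Among the secreted class 3 ligands, Sema3c was higher in mesenchyme in the parotid and higher in epithelium in the submandibular gland. Sema3c, which signals through both neuropilins with Plxnd1 or A-type plexins, measured 413, 659, 732 and 769 CPM in the 4 libraries of parotid mesenchyme and 22.8, 17.8, 21.9 and 12.6 CPM in submandibular mesenchyme. In epithelium it measured 110, 66.6, 86.7 and 139 CPM in the parotid and 94.5, 71.4, 131 and 53.6 CPM in the submandibular gland. The mesenchymes were far apart, the epithelia overlapped, and both epithelia lay between the 2 mesenchymes. The log2 fold change of parotid over submandibular mesenchyme was 5.10 (SE 0.34, adjusted p = 4.1e-08), and that between the epithelia was 0.20 (SE 0.29, adjusted p = 0.657). Epithelium over mesenchyme was -2.67 (SE 0.30, adjusted p = 1.39e-06) in parotid and 2.22 (SE 0.30, adjusted p = 1.05e-05) in submandibular gland, so the layer that was higher was a different one in each gland. Leaving out any 1 of the 16 libraries or using another scaling, filter or test gave 4.92 to 5.26 for the difference between mesenchymes. In parotid mesenchyme replicate 4, where Sema3c was highest, the muscle marker sum was the lowest of the group, at 311 CPM, and the neuronal one the highest, at 746 CPM; the part of either in the result was not tested.

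Sema3d, a ligand of Nrp1, measured 61, 70.3, 106 and 107 CPM in parotid mesenchyme and 21.5, 26.5, 18.6 and 15.9 CPM in submandibular mesenchyme. It measured 66.1 to 98.6 CPM in the parotid and 69.8 to 198 CPM in the submandibular epithelium. The mesenchymes did not overlap and the epithelia did. Parotid over submandibular was 2.06 (log2, SE 0.29, adjusted p = 6.09e-05) in mesenchyme and -0.62 (SE 0.28, adjusted p = 0.125) in epithelium; without submandibular epithelium replicate 4, the lowest of its group at 69.8 CPM, the epithelial difference was called, at -0.81 (adjusted p = 0.0338). Epithelium was higher than mesenchyme in the submandibular gland (2.60, SE 0.30, adjusted p = 1.31e-06) and not called in the parotid gland (-0.08, SE 0.28, adjusted p = 0.81). Sema3e, the neuropilin-independent ligand of Plxnd1 that repels growing vessels, measured 11.5, 22.7, 21.1 and 29.7 CPM in parotid mesenchyme and 1.23, 5.34, 2.58 and 3.43 CPM in submandibular mesenchyme. It did not exceed 1.54 CPM in any epithelial library. The difference between mesenchymes was 2.76 (log2, SE 0.47, adjusted p = 0.000243), and Sema3e was lower in epithelium than in mesenchyme in both glands. Sema3a, a repellent of sensory and sympathetic axons that acts through Nrp1, was also mesenchymal in both glands, but its mesenchymal levels overlapped between glands, at 84.7 to 120 CPM and 90.4 to 137 CPM. In epithelium Sema3a was lower in parotid, at 27.7 to 38.8 CPM, than in submandibular gland, at 50.3 to 63 CPM (log2 -0.70, SE 0.15, adjusted p = 0.0031).

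Sema3d, Sema3a, Sema3e and Sema3c lie in this order on the plus strand of chromosome 5 (GRCm38), between positions 12383385 and 17730268, an interval of 5.35 Mb that holds 21 protein-coding genes. This stretch was looked at after the values were seen. Of the 15 genes tested in it, 4 of them members, 7 were higher and 1 was lower in parotid than in submandibular mesenchyme. Over all genes tested these shares were 20.8% and 13.7%. The higher ones were Sema3d, Sema3e and Sema3c and also genes outside the family. Sema3a, between Sema3d and Sema3e, differed by -0.20 on the log2 scale (SE 0.15, adjusted p = 0.303) between the mesenchymes, which was not called.

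Sema3b and Sema3f, both of which bind Nrp2 and act on axons and tumour cells, were the epithelial ligands of class 3, and their genes lie 0.0723 Mb apart on chromosome 9. Sema3b measured 77.3, 103, 118 and 120 CPM in parotid epithelium, against 44.6, 79.2, 28.4 and 96.8 CPM in that of the submandibular gland. In mesenchyme it measured 3.59 to 6.76 CPM in the parotid and 1.19 to 2.99 CPM in the submandibular gland. The layers were far apart in each gland, with log2 fold changes of 4.37 (SE 0.38, adjusted p = 7.25e-08) and 5.04 (SE 0.41, adjusted p = 3.17e-08). The mesenchymal level was 4.85% of the epithelial one in parotid and 3.05% in submandibular gland, where the epithelial marker sum stood at 0.751% and 1.65%. The part of epithelial cells left in the mesenchymal samples was not tested. Sema3b was also higher in parotid than in submandibular mesenchyme (1.41, SE 0.41, adjusted p = 0.0149), a call lost with limma-voom (adjusted p = 0.166) and without a filter on low counts (adjusted p = 0.0556). Between the epithelia the difference was 0.75 (SE 0.32, adjusted p = 0.114), and it was called without submandibular epithelium replicate 4, the highest library of its group (1.07, adjusted p = 0.0292), with limma-voom (0.85, adjusted p = 0.0338) and with the replicate number as a block (0.87, adjusted p = 0.0379). Sema3f had a smaller layer difference, 0.72 in parotid (SE 0.13, adjusted p = 0.000122) and 0.89 in submandibular gland (SE 0.13, adjusted p = 1.3e-05), with no gland difference called. Its libraries ranged from 144 to 227 CPM in epithelium and from 95.9 to 127 CPM in mesenchyme. Sema3g, best known from arterial endothelium, was low: 0.14 to 3.38 CPM in parotid mesenchyme and 1.85 to 4.54 CPM in the submandibular one, and at most 0.108 CPM in any epithelial library. Parotid epithelium held 1 count in all and parotid mesenchyme 168, a ratio of 174 with a 95% counting interval of 30.9 to 6933.

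Of the 6 class 4 genes none was called higher in parotid than in submandibular mesenchyme, where 20.8% of all genes tested were. Sema4a, Sema4b and Sema4d were epithelial in both glands. Sema4a, a ligand of B-type plexins and Plxnd1 known from immune cells, measured 47.7 to 82.3 CPM in the 8 epithelial and 4.03 to 12 CPM in the 8 mesenchymal libraries. Its log2 fold changes of epithelium over mesenchyme were 3.02 (SE 0.28, adjusted p = 9.16e-08) in parotid and 3.15 (SE 0.28, adjusted p = 5.31e-08) in submandibular gland. Sema4d, the main ligand of Plxnb1, measured 19 to 43 CPM in epithelium and 4.08 to 10 CPM in mesenchyme, with fold changes of 2.16 (SE 0.25) and 2.80 (SE 0.26). Neither gene was called between the glands in either layer. Macrophage markers, whose cells also make Sema4a and Sema4d, summed to 47.7 to 111 CPM in mesenchyme and 0.36 to 24.3 CPM in epithelium; their part in the result was not tested. Sema4b was higher in epithelium by 1.12 (SE 0.21, adjusted p = 0.000166) in the submandibular gland. In the parotid gland its difference was 0.57 (SE 0.21, adjusted p = 0.0251), and this call did not hold when replicate 2 or 4 of the epithelium or replicate 1, 2 or 4 of the mesenchyme was left out (adjusted p 0.0541 to 0.107). Sema4c, a ligand of Plxnb2, was the single member tested for which neither gland nor layer gave a call, with 57.2 to 86.6 CPM in all 16 libraries.

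Sema4g and Sema4f were the class 4 genes that leaned to submandibular mesenchyme. Sema4g measured 27.8, 26.4, 22 and 19.2 CPM there and 14.2, 12.8, 14.2 and 15.1 CPM in parotid mesenchyme. The groups did not overlap, and parotid was lower by a log2 fold change of -0.76 (SE 0.19, adjusted p = 0.00453). In submandibular gland its epithelium was lower than its mesenchyme (-1.43, SE 0.19, adjusted p = 4.06e-06). Sema4f was called in the same comparisons, with -0.76 (SE 0.27, adjusted p = 0.0372) between mesenchymes and -0.67 (SE 0.27, adjusted p = 0.0363) between the submandibular layers. These Sema4f calls did not outlast the loss of 1 library. The mesenchymal call was lost without any 1 of the parotid mesenchyme libraries or of submandibular mesenchyme replicates 2, 3 and 4 (adjusted p 0.0569 to 0.102). The layer call was lost without submandibular epithelium replicate 1 or 3 or submandibular mesenchyme replicate 2, 3 or 4 (adjusted p 0.0528 to 0.105).

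The 2 class 5 genes, whose extracellular part carries thrombospondin repeats, followed different patterns. Sema5a measured 69.2, 107, 83.9 and 79.9 CPM in parotid epithelium, against 158, 138, 177 and 240 CPM in parotid mesenchyme. In the submandibular gland the order was turned, with 117, 129, 151 and 245 CPM in epithelium and 54.5, 58.6, 60.9 and 68.2 CPM in mesenchyme. No 2 of the groups that were compared overlapped. The log2 fold change of epithelium over mesenchyme was -1.07 (SE 0.21, adjusted p = 0.00036) in parotid and 1.41 (SE 0.22, adjusted p = 2.51e-05) in submandibular gland. Between the glands it was -0.92 (SE 0.21, adjusted p = 0.0068) in epithelium and 1.56 (SE 0.22, adjusted p = 4.1e-05) in mesenchyme. Sema3c and Sema5a were the 2 members with called layer differences of opposite direction, a pattern of 1.94% of all genes tested, and Sema5a alone had called gland differences of opposite direction, a pattern of 2.65%. Sema5b was mesenchymal in both glands and higher in parotid in both layers. It measured 60.6, 61.1, 53.1 and 35.2 CPM in parotid mesenchyme and 24.5, 16.9, 24.8 and 21.8 CPM in the submandibular one (1.25, SE 0.30, adjusted p = 0.00352). Its epithelial levels were low, at 0.848 to 3.56 CPM and 0.183 to 0.69 CPM, and did not overlap (2.84, SE 0.44, adjusted p = 0.000266). In parotid epithelium Sema5b stood at 5% of its mesenchymal level, where the mesenchymal marker sum stood at 0.972%. The part of mesenchymal cells left in the epithelial samples was not tested.

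All 4 class 6 genes, which act through A-type plexins, were higher in parotid than in submandibular mesenchyme, as were 20.8% of all genes tested. Sema6d measured 167, 155, 206 and 215 CPM in parotid mesenchyme and 30.8, 22.6, 29.6 and 33.9 CPM in the submandibular one. Its epithelial levels were 28.1, 28.6, 25.6 and 24 CPM in the parotid and 8.66, 10.2, 10.4 and 19.2 CPM in the submandibular gland. Parotid was thus higher in both layers without overlap, by 2.67 (log2, SE 0.21, adjusted p = 6.67e-08) in mesenchyme and 1.13 (SE 0.20, adjusted p = 0.000904) in epithelium. Sema6a was the epithelial member of the class. It measured 443, 570, 485 and 478 CPM in parotid epithelium, 185, 215, 176 and 341 CPM in submandibular epithelium, 190 to 276 CPM in parotid mesenchyme and 126 to 139 CPM in submandibular mesenchyme. Every parotid epithelial library lay above all others, and the gland difference was 1.11 in epithelium (SE 0.17, adjusted p = 0.00027) and 0.79 in mesenchyme (SE 0.17, adjusted p = 0.0018). Sema6c and Sema6b were mesenchymal in both glands. Sema6c measured 123 to 183 CPM in parotid mesenchyme and 57.7 to 72.1 CPM in the submandibular one (1.19, SE 0.14, adjusted p = 5.96e-06), and in epithelium the difference was 0.57 (SE 0.14, adjusted p = 0.0104). The epithelial call was lost without the pair of epithelial libraries that held most erythroid counts, parotid replicate 4 and submandibular replicate 1 (0.55, adjusted p = 0.06). Sema6b measured 30.8, 35, 28.5 and 16.4 CPM in parotid mesenchyme and 9.95 to 14.4 CPM in the submandibular one (1.13, SE 0.23, adjusted p = 0.00113). Sema7a, the lipid-anchored ligand of Plxnc1, stayed low, at 0.438 to 2.79 CPM in mesenchyme and at most 0.422 CPM in epithelium, with the layer difference called in both glands and no gland difference called.

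**Figure D3:**
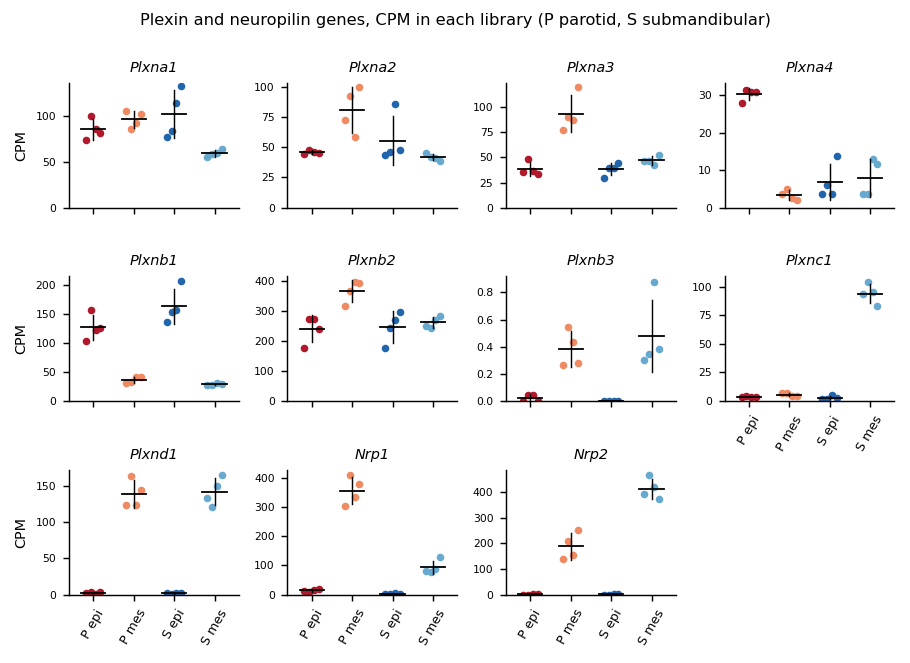
Level in each library (CPM, own axis from 0 in each panel) of the 9 plexins and 2 neuropilins in parotid (P) and submandibular (S) epithelium (epi) and mesenchyme (mes); points are libraries, lines the mean and SD of 4. Plxnc1 is near 94 CPM in submandibular mesenchyme and below 7 CPM elsewhere, Plxna4 is highest in parotid epithelium, and Plxnd1 and both neuropilins are mesenchymal.

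Both neuropilins were far lower in epithelium than in mesenchyme, and Nrp1 differed between the glands in both layers. Nrp1, a coreceptor for Sema3a and for vascular endothelial growth factor, measured 303, 409, 335 and 381 CPM in parotid mesenchyme and 81.6, 77.5, 87.2 and 128 CPM in submandibular mesenchyme. In epithelium it measured 12.3, 10.4, 16.4 and 18.9 CPM in the parotid and 1.15, 1.93, 4.56 and 1.83 CPM in the submandibular gland. The 4 groups did not overlap at all. Parotid was higher by 1.93 (log2, SE 0.27, adjusted p = 5.05e-05) in mesenchyme and by 2.67 (SE 0.32, adjusted p = 4.13e-05) in epithelium. In parotid epithelium Nrp1 stood at 4.06% of its mesenchymal level and in submandibular epithelium at 2.53%, where the mesenchymal marker sums stood at 0.972% and 0.667%. By library, in the same order, that marker sum was 132, 73.8, 351 and 319 CPM in parotid epithelium. In submandibular epithelium it was 14.8, 14.5, 265 and 71.2 CPM, highest in replicate 3 as was Nrp1. The part of mesenchymal cells left in the epithelial samples was not tested. The endothelial marker sum, whose cells also make Nrp1, overlapped between the mesenchymes and did not exceed 10.7 CPM in any epithelial library; its part in the result was not tested. Nrp2, the coreceptor of Sema3b, Sema3f and Sema3g, measured 138, 211, 154 and 252 CPM in parotid mesenchyme and 392, 466, 421 and 374 CPM in the submandibular one. The groups did not overlap, yet the difference was not called (-1.13, SE 0.43, adjusted p = 0.0562). It was called with limma-voom, with the 8 mesenchymal libraries alone, with library totals or upper-quartile factors, with the filter at 1 CPM, with the replicate number as a block, and without any 1 of parotid epithelium replicates 1, 2 and 4 and submandibular epithelium replicate 2, none of which it compares. Nrp2 did not exceed 2.26 CPM in epithelium, and its epithelial level was 0.496% of the mesenchymal one in parotid and 0.207% in submandibular gland. The mesenchymal marker sum stood at 0.972% and 0.667%, and the part of mesenchymal cells in the Nrp2 level was not tested. Per length, Nrp1 made up 70 ± 3.72% of the neuropilin sum in parotid mesenchyme and 21.6 ± 5.42% in submandibular mesenchyme (SD, n = 4).

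Plxnd1, the endothelial receptor of Sema3e and, with neuropilins, of Sema3c, was mesenchymal in both glands and was not called between them. It measured 123, 163, 123 and 144 CPM in parotid mesenchyme and 133, 121, 149 and 164 CPM in the submandibular one (-0.04, SE 0.24, adjusted p = 0.927), and 0.927 to 3.28 CPM in the 8 epithelial libraries. Its layer differences were -5.92 (SE 0.32) and -6.35 (SE 0.33). In parotid and submandibular epithelium Plxnd1 stood at 1.66% and 1.21% of its mesenchymal level. Endothelial marker sums stood at 0.831% and 0.729%, mesenchymal ones at 0.972% and 0.667%, neuronal ones at 1.46% and 3.4%, and muscle ones at 1.26% and 2.2%. Macrophage marker sums stood at 23.5% and 8.65%, and erythroid ones at 10.5% and 6.54%. The part of any of these cell types in the result was not tested. Plxnc1 measured 93.2, 104, 95 and 83.1 CPM in submandibular mesenchyme, 6.92, 6.74, 4.9 and 4.39 CPM in parotid mesenchyme and 2.05 to 5.46 CPM in epithelium. All 4 submandibular mesenchymal libraries stood clear of the other 12. The log2 fold change of parotid over submandibular mesenchyme was -4.04 (SE 0.25, adjusted p = 7.01e-09), and submandibular epithelium was lower than its mesenchyme by -4.96 (SE 0.27, adjusted p = 8.29e-11). Between the parotid layers Plxnc1 was not called (-0.57, SE 0.25, adjusted p = 0.0543). It was called there with DESeq2, RLE factors, the filter at 1 CPM and the 8 libraries compared. Leaving out parotid mesenchyme replicate 4 or submandibular epithelium replicate 3 also gave the call for Plxnc1. For its ligand Sema7a the difference between the mesenchymes was 0.53 (SE 0.58, adjusted p = 0.524), which was not called.

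The A-type plexins, the signalling receptors of class 3, 5 and 6 ligands, differed in layer and gland. Plxna1, Plxna2 and Plxna3 were each higher in parotid than in submandibular mesenchyme, by 0.71 (SE 0.15, adjusted p = 0.00126), 0.96 (SE 0.19, adjusted p = 0.000944) and 0.99 (SE 0.15, adjusted p = 7.42e-05) on the log2 scale. Plxna1 measured 85.4 to 105 CPM in parotid mesenchyme and 54.9 to 64.1 CPM in the submandibular one, Plxna2 58.6 to 100 and 38.8 to 45.2 CPM, and Plxna3 77.4 to 120 and 42.8 to 52.9 CPM. Plxna1 was higher in epithelium than in mesenchyme in submandibular gland (0.78, SE 0.15, adjusted p = 0.000161) and not called in parotid. Plxna2 (-0.82, SE 0.19, adjusted p = 0.00123) and Plxna3 (-1.28, SE 0.15, adjusted p = 1.07e-06) were lower in parotid epithelium. In submandibular gland neither was called, though Plxna3 (-0.29, adjusted p = 0.0959) was with other scalings and filters. None of the 3 overlapped between the mesenchymes, where 36.8% of all genes tested did not overlap, and none was called between the epithelia. Plxna4, a receptor of Sema3a and Sema6a in neurons, was the exception. It measured 27.9, 31.4, 30.8 and 30.9 CPM in parotid epithelium, against 3.77, 5.97, 3.61 and 13.9 CPM in that of the submandibular gland. In mesenchyme it measured 3.76, 5.1, 2.53 and 2.1 CPM in the parotid and 3.52, 3.55, 13 and 11.7 CPM in the submandibular gland. Parotid epithelium thus stood above all other libraries, by 2.14 (log2, SE 0.48, adjusted p = 0.0054) over submandibular epithelium and by 3.18 (SE 0.51, adjusted p = 4.48e-05) over its own mesenchyme. Between the mesenchymes Plxna4 was not called (-1.24, SE 0.49, adjusted p = 0.0625). That difference was called with DESeq2, library totals, upper-quartile factors and the filter at 1 CPM, and when some single libraries were left out. Markers of the Schwann cell lineage, some of which salivary epithelium also makes, summed to 464 to 815 CPM in the parotid and 316 to 532 CPM in the submandibular epithelium; Cdh19 had no count in parotid epithelium. Their part in the result was not tested.

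Of the B-type plexins, Plxnb1 was epithelial and Plxnb2 was broad. Plxnb1, the receptor of Sema4d, measured 104 to 206 CPM in epithelium and 27.3 to 40.8 CPM in mesenchyme, with layer differences of 1.79 (SE 0.14, adjusted p = 6.44e-09) in parotid and 2.5 (SE 0.14, adjusted p = 1.48e-10) in submandibular gland. Plxnb2, a receptor of Sema4c and Sema4d, measured 175 to 395 CPM in all 16 libraries. It was higher in parotid mesenchyme than in parotid epithelium (epithelium lower by -0.61, SE 0.15, adjusted p = 0.0019) and than in submandibular mesenchyme (0.49, SE 0.15, adjusted p = 0.0181). The second of these calls was lost without parotid mesenchyme replicate 3 (adjusted p = 0.0547), without submandibular mesenchyme replicate 2 (adjusted p = 0.0528) and with library totals as scaling (adjusted p = 0.101). Plxnb3, a receptor of Sema5a, was close to the limit of counting: 2 counts in all in parotid epithelium, 32 in parotid mesenchyme, 0 in submandibular epithelium and 37 in submandibular mesenchyme. The ratio of parotid mesenchyme to epithelium was 16.6 with a 95% counting interval of 4.24 to 143, and submandibular mesenchyme was at least 15.7-fold higher than its epithelium when the group with no count is put at 3 counts in all.

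**Figure D4:**
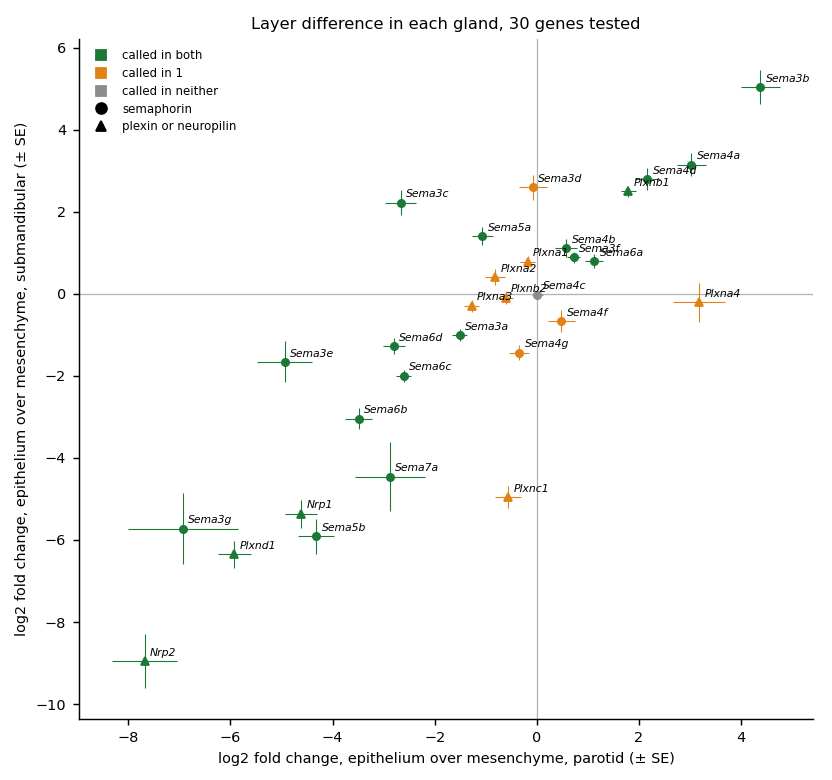
Log2 fold change of epithelium over mesenchyme (± SE) in the parotid gland (horizontal) and the submandibular gland (vertical) for the 30 members tested. Most lie along the diagonal. Sema3c and Sema5a lie in the upper left, with called differences of opposite direction, and Plxnc1 and Plxna4 were called in 1 gland only.

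Across both glands, 7 members were called higher in epithelium in each (Sema3b, Sema3f, Sema4a, Sema4b, Sema4d, Sema6a and Plxnb1) and 11 lower in each (Sema3a, Sema3e, Sema3g, Sema5b, Sema6b, Sema6c, Sema6d, Sema7a, Plxnd1, Nrp1 and Nrp2). Together these 18 stand beside a background of 50.9% of all genes tested that were called in the same direction in both glands. The plot of layer differences shows them in its upper right and lower left. Between the glands, 5 members were higher in parotid in both layers (Sema5b, Sema6a, Sema6c, Sema6d and Nrp1), and no member was lower in both; 6.71% of all genes were called in the same direction in both layers.

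**Figure D5:**
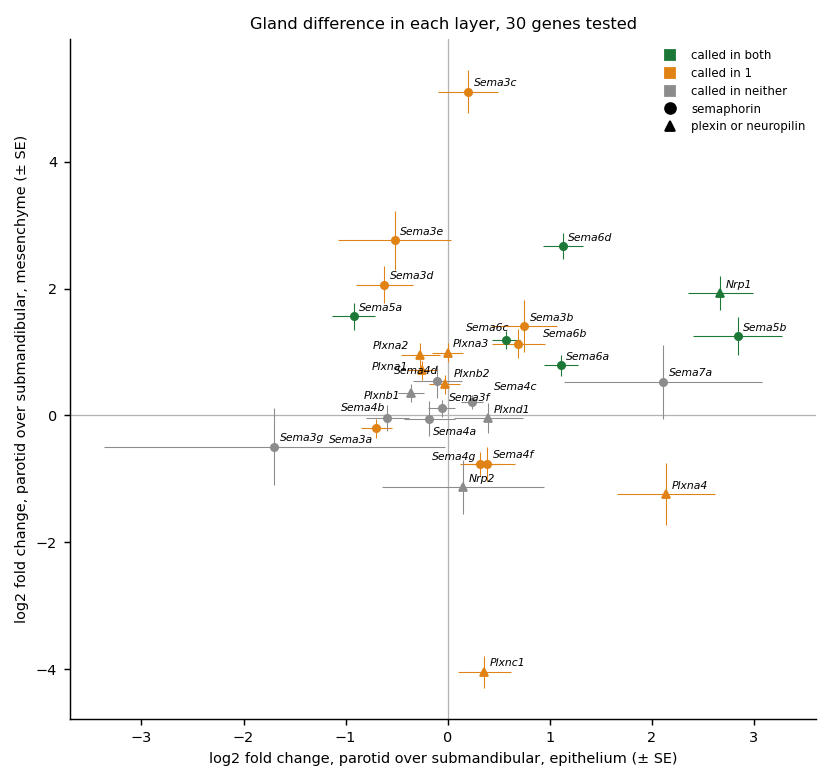
Log2 fold change of parotid over submandibular gland (± SE) in epithelium (horizontal) and mesenchyme (vertical) for the 30 members tested. Sema3c and Plxnc1 lie far from 0 on the vertical axis and near 0 on the horizontal one, and Nrp1, Sema5b and Sema6d lie in the upper right.

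The gland difference itself depended on the layer for 15 members (interaction of gland and layer), beside 20.9% of all genes tested, 8.67% positive and 12.2% negative; the median absolute log2 value was 0.97 against 0.40 over all genes. For 10 of them the value was negative, so that the log2 fold change of parotid over submandibular gland was higher in mesenchyme than in epithelium. These were led by Sema3c (-4.89, SE 0.43, adjusted p = 1.49e-06), Sema3e (-3.28, SE 0.72, adjusted p = 0.00352), Sema3d (-2.69, SE 0.40, adjusted p = 0.000212) and Sema5a (-2.47, SE 0.30, adjusted p = 2.59e-05). Sema6d, Plxna2, Plxna3, Plxna1, Plxnb1 and Sema6c followed, at -1.53 to -0.62. In epithelium, parotid over submandibular gland was above 0 for Sema3c (0.20), Sema6d (1.13) and Sema6c (0.57) and 0.00 for Plxna3. It was below 0 for the others of the 10, with Sema5a called (-0.92). For 5 members the interaction was positive: Plxnc1 (4.39, SE 0.35, adjusted p = 2.28e-07), Plxna4 (3.38, SE 0.68, adjusted p = 0.00223), Sema5b, Sema4f and Sema4g. The positive count was 3 without any 1 of parotid epithelium replicates 2 and 4, parotid mesenchyme replicates 3 and 4, submandibular epithelium replicates 1 and 2 and submandibular mesenchyme replicates 3 and 4, through loss of Sema4f (1.15, SE 0.38, adjusted p = 0.0398) and Sema5b (1.59, SE 0.53, adjusted p = 0.0439). Sema4f kept its call without parotid epithelium replicate 1, submandibular epithelium replicate 4 or submandibular mesenchyme replicate 1 and lost it without any other library (adjusted p 0.0503 to 0.0768). The negative call of Sema6c (-0.62, SE 0.20, adjusted p = 0.0366) was lost when 1 of these libraries was left out: replicate 1 or 4 of parotid epithelium, replicate 2, 3 or 4 of parotid mesenchyme, submandibular epithelium replicate 2 or 3, or submandibular mesenchyme replicate 1, 2 or 3 (adjusted p 0.0547 to 0.101). It was also lost with library totals (-0.47, adjusted p = 0.0851), limma-voom (0.0512), the filter at 1 CPM (0.0534), no filter (0.0586) and without the erythroid-rich epithelial pair (0.0967). Sema5b was also lost without parotid epithelium replicate 1, submandibular epithelium replicate 4 or submandibular mesenchyme replicate 1 (adjusted p 0.0718 to 0.0983), with the replicate number as a block (0.0648), with no filter (0.0964), with limma-voom (0.152) and without the erythroid-rich pair (0.134). With library totals as scaling, 59.8% of all genes called in the interaction were positive, against 41.5%; the members then called were 5 positive and 9 negative.

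The gland difference depended most on the layer for Sema3c, Plxnc1, Plxna4, Sema3e, Sema3d and Sema5a. To show what lies before the start of such genes, a stretch is printed for 4 of them, but not for Sema3c and Plxna4. The 4 windows were held in the RefSeq promoter table (GRCm38.p6) and overlapped no annotated exon. Each is 140 bases long and ends 5 bases before the RefSeq start, and 26 of the 31 members had an entry. For Sema3d and Plxnc1 the first bases after that start were not found in a GENCODE transcript of the gene. The Sema3d window ends at position 12383160, whereas the gene starts at 12383385 in GENCODE, so it may not be the promoter of the transcripts counted. Both strands were searched, and capitals mark the matches. The GC box was spelled as GGGCGG and the Twist-type E-box as CATNTG. The promoter element read by the basal machinery, spelled as TATAAA, was in no window. The same held for the element of nuclear factor Y, spelled as CCAAT. Neither the homeobox core, spelled as TAATTA, nor the forkhead core, spelled as GTAAACA, was found.
Sema3d (chr5:12383021-12383160, plus strand): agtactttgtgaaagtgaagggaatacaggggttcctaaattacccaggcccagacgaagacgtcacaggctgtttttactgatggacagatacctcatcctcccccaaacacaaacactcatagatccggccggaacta
Sema3e (chr5:14025131-14025270, plus strand): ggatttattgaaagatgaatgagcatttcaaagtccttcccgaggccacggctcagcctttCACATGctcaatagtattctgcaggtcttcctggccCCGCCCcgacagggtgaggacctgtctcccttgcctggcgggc
Sema5a (chr15:32244668-32244807, plus strand): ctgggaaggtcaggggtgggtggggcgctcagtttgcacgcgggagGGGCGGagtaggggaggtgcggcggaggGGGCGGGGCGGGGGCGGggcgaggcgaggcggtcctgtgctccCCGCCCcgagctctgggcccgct
Plxnc1 (chr10:94944851-94944990, minus strand): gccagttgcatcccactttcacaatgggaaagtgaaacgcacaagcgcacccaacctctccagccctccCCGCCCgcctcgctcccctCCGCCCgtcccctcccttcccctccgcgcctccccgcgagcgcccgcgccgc

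Sema5a held 5 matches to GGGCGG, 2 of which share a base, Plxnc1 held 2, Sema3e held 1 with 1 match to CATNTG, and Sema3d held none. Windows of the same place and length held GGGCGG in 27.5% and CATNTG in 20.8% of 32851 RefSeq promoters, TATAAA in 7.24%, the element of nuclear factor Y in 23.5%, the homeobox core in 2.6% and the forkhead core in 1.71%. A match is a description of the letters only.

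Ligands were also set side by side with receptors or coreceptors, as 29 listed pairs. For class 3 ligands the listed plexin can be the signalling part of the receptor rather than the binding part. No background share for such pairs was computed. In 3 pairs the ligand was called epithelial and the receptor mesenchymal in both glands: Sema3b with Nrp2, Sema3f with Nrp2, and Sema4a with Plxnd1. In 5 pairs both were called on the same side in both glands: Sema3a with Nrp1, Sema3e with Plxnd1 and Sema3g with Nrp2 in mesenchyme, and Sema4a and Sema4d with Plxnb1 in epithelium. In the other 21 at least 1 partner had no side that was called in both glands. Sema3c belonged to these: with Nrp1, Nrp2 and Plxnd1, all mesenchymal in both glands, it was on the receptor's side in the parotid and on the opposite side in the submandibular gland.

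The partners of the pathway, 67 genes in 3 lists, are given beside the shares of all genes tested. Between the mesenchymes, where 20.8% of all genes were higher and 13.7% lower in parotid, 5 of 16 coreceptors and binding partners of plexins were higher and 0 lower. Of 13 other ligands, receptors and processing enzymes 3 were higher and 0 lower. Called genes of both lists thus made up no larger a share than the 34.5% of all genes. The largest difference was that of Met, the hepatocyte growth factor receptor that forms complexes with B-type plexins and marks migrating muscle progenitors, at 176 CPM in parotid mesenchyme and 4.61 CPM in the submandibular one (log2 5.25, SE 0.24, adjusted p = 2.72e-10). Of 38 intracellular effectors 18 were higher and 8 lower. Dpysl5 (105 and 4.67 CPM; 4.49, SE 0.41), Dpysl3 (250 and 60.4 CPM; 2.05, SE 0.22) and Crmp1 (121 and 35.2 CPM; 1.78, SE 0.34), collapsin response mediators that neurons make in quantity, led the higher ones. Mical3, Rap1a, Rnd2 and Rnd3 led the lower ones, at -1.29 to -0.75. The neuronal and muscle marker sums were higher in the same libraries, as given above. In epithelium, neuronal markers summed to at most 12.2 CPM in the parotid and 7 CPM in the submandibular gland. Dpysl3 measured 81.2 and 38.1 CPM there. Dpysl5 measured 33.2 CPM in submandibular epithelium, higher than in its mesenchyme (2.83, SE 0.39, adjusted p = 1.05e-05). The part of neurons and muscle in these differences was not tested. In epithelium, where 11.2% of all genes were higher and 9.72% lower in parotid, 9 effectors were higher and 4 lower: Dpysl3, Fyn and Rnd3 by 0.87 to 1.09, and lower Limk2, a kinase that acts on cofilin, by -1.28 (SE 0.12, adjusted p = 1.71e-06). In the list of 13 other ligands, receptors and enzymes 6 were higher and 1 lower in parotid epithelium. Pcsk6, a proprotein convertase of the kind that cleaves class 3 semaphorins, was higher there by 1.17 (SE 0.23, adjusted p = 0.00191) and higher in epithelium than in mesenchyme in both glands.

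Between the layers Kdr and Flt1, receptors of vascular endothelial growth factor that share the neuropilins, led the called partners of at least 5 CPM. In the parotid gland Flt1 (-6.69, SE 0.47) was close to Mst1r (-6.67, SE 0.52) and Itga1 (-6.65, SE 0.50). In the submandibular gland Kdr (-10.85, SE 0.58) and Flt1 (-9.35, SE 0.58) were followed by Itga1 (-7.69, SE 0.57) and Mst1r (-7.17, SE 0.56). Kdr measured 162 and 160 CPM in parotid and submandibular mesenchyme and 0.807 and 0.0724 CPM in epithelium, and Flt1 43.8 and 43.4 CPM against 0.429 and 0.0565 CPM. Neither was called between the mesenchymes (log2 0.03, SE 0.31, and 0.01, SE 0.32). Of the 38 effectors, 25 were lower and 5 higher in epithelium in parotid and 23 lower and 5 higher in submandibular gland, beside 33.5% of all genes lower and 31.4% higher in the first and 33.7% and 33.3% in the second. Erbb2, a receptor kinase that associates with plexin B1, was higher in epithelium in both, by 0.88 (SE 0.16) and 1.92 (SE 0.17). Met was lower in epithelium in the parotid gland (-2.68, SE 0.20, adjusted p = 6.58e-09) and higher there in the submandibular gland (2.94, SE 0.22, adjusted p = 4.62e-09), and its interaction of gland and layer was -5.62 (SE 0.30, adjusted p = 4.19e-09), of the same sign as that of Sema3c.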

How the data were processed

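The submitters made full-length cDNA and tagmented it into libraries with kits that do not mark strand, per the labels' protocols. STAR 2.5.2a, edgeR and the mouse build GRCm38 (mm10) are named in the submitters' processing notes; no source used here names the read counter or its annotation. The authors deposited raw gene counts for 48709 genes and spike-ins, and a normalised signal table that equals CPM after TMM scaling when recomputed from the deposited counts. Spike-ins, 0.00115 to 0.00651% of a library, were left out.

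From the counts, edgeR 4.0.16 (R 4.3.3) fitted 1 quasi-likelihood model with a coefficient for each of the 4 groups to all 16 libraries, with TMM scaling and the filterByExpr filter on low counts. Tested were 5 contrasts, with Benjamini-Hochberg adjustment over 18191 genes and a threshold of 0.05. SEs were derived from each log2 fold change and its F statistic. RPKM used the union exon length of GENCODE M21, which may not be the annotation the authors counted on. The scripts were tested on simulated counts. Counting intervals are exact at 95% and, like the floor of 3 counts, cover counting error only. Without strand, reads of Plxnb1, Sema4c, Plxna1 and Plxna4 cannot be told apart from those of overlapping antisense genes, which held few counts.

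All 31 members could be named; of the partner lists, up to 4 called genes per direction and contrast with the largest change and at least 5 CPM in the higher group. The members and lists were chosen with earlier results of these data known. Alternatives used other scaling, filters, tests (DESeq2 1.42.0, limma-voom 3.58.1), the 8 libraries compared, the replicate number as a block, and 1 library or a pair left out. p-values measure the spread between these samples.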

Additional observations from a re-analysis of the deposited data

Results flagged for a closer look

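In 6 of 119 groups of 4 libraries, 1 library lay far from the other 3 (by Dixon's gap-to-range ratio at its 95% critical value); chance flags about 1 in 20 groups. In submandibular epithelium replicate 4, Sema4b was at 22.3 CPM with the others at 13.8 to 15, and Sema6d at 19.2 CPM with the others at 8.66 to 10.4. Plxna2 was at 85.2 CPM in submandibular epithelium replicate 3, with the others at 43.3 to 47.2. Sema4f was low in replicate 1 of parotid epithelium, at 3.35 CPM beside 6.65 to 7.32, and of parotid mesenchyme, at 3.38 CPM beside 4.48 to 4.66. Plxnb3 was at 0.877 CPM in submandibular mesenchyme replicate 3, with the others at 0.306 to 0.381.

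For 15 members the gland difference differed between the layers by the interaction test (edgeR). The log2 value, parotid over submandibular gland in epithelium minus the same in mesenchyme, was -4.89 for Sema3c, -3.28 for Sema3e, -2.69 for Sema3d, -2.47 for Sema5a, -1.53 for Sema6d, -1.22 for Plxna2, -0.99 for Plxna3, -0.96 for Plxna1, -0.70 for Plxnb1 and -0.62 for Sema6c. It was 4.39 for Plxnc1, 3.38 for Plxna4, 1.59 for Sema5b, 1.15 for Sema4f and 1.08 for Sema4g.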

How the results depend on the processing

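Counts of members called moved by over 1.5 times in these cases. Members lower in parotid epithelium numbered 4, not 2, with library totals or upper-quartile factors. Those lower in parotid mesenchyme numbered 5 with the filter at 1 CPM in 4 libraries or upper-quartile factors and 6 with library totals, not 3. Positive interactions numbered 3, not 5, without the erythroid-rich epithelial pair, and 3 to 5 with 1 library left out. With 1 library left out, the members called numbered 8 to 10 between epithelia, 16 to 20 between mesenchymes, 23 to 25 and 24 to 26 between the layers of the parotid and submandibular gland, and 12 to 15 in the interaction.

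Directions turned only for differences that were not called. Between epithelia these were Plxna3 (0.00 with the 8 libraries compared, -0.03 with library totals, -0.05 with upper-quartile factors, -0.02 without the pair), Plxnb2 (0.01 without a filter) and Nrp2 (-1.0 without the pair). Between mesenchymes they were Sema3f (-0.07 with library totals, 0.00 with upper-quartile factors) and Sema4a (0.02 with limma-voom). Sema4c between the parotid layers was -0.03 with DESeq2 and with RLE factors and -0.01 without the pair. In the interaction Sema4a was 0.01 with library totals and Sema3g 0.39 with limma-voom. With 1 library left out, values between epithelia ran from -0.16 to 0.04 for Sema3f, -0.26 to 0.11 for Sema4d, -0.15 to 0.11 for Plxnb2, -0.11 to 0.10 for Plxna3, -0.75 to 0.72 for Nrp2 and -0.35 to 0.04 for Plxna2. Between mesenchymes they ran from -0.26 to 0.25 for Sema4a, -0.26 to 0.07 for Sema4b and -0.13 to 0.04 for Plxnd1. Between the layers they ran from -0.21 to 0.04 for Sema3d and -0.06 to 0.11 for Sema4c in parotid, and from -0.21 to 0.03 for Plxnb2, -0.10 to 0.02 for Sema4c and -0.85 to 0.13 for Plxna4 in submandibular gland. In the interaction they ran from -0.04 to 0.15 for Sema4c and -0.43 to 0.08 for Sema4a. The cause was not tested.

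Deviations of same-numbered libraries correlated at -0.12 to 0.218. The highest values were those between the submandibular layers for replicates 1 and 2, at 0.215 and 0.218. With 4 libraries a group this cannot tell whether the replicate numbers pair the samples. With the replicate number as a block, 10, 20, 24, 25 and 15 members were called between epithelia, between mesenchymes, between parotid layers, between submandibular layers and in the interaction. In the interaction the block dropped Sema5b (adjusted p = 0.0648) and added Plxnb2 (adjusted p = 0.0253). At these depths Sema3g, Sema7a and Plxnb3 in epithelium rest on few counts.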
